A study of Homo sapiens with 9 samples.

Results

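In RKO colorectal cancer cells, 39 probes carrying 37 gene names went from below to above background when TSA was added, whether or not UHRF1 had been depleted. The members were chosen by a flag of the scanner software, out of 50599 probes with 36337 gene names. It is the flag for a signal well above background, and it had to be absent on all 4 mock arrays and present on all 4 TSA arrays. Of the 25658 probes below background on the 4 mock arrays, 46 (0.179%) met these flags. A further 7 of them, which belong to AKR1 genes and unnamed XLOC transcripts, were set aside with 13 name prefixes of gene families described elsewhere, among them MAGE, HIST, HOX and KRT. The brightest of those 7 was a probe of AKR1C1. Because the flags chose the members, their rise from mock to TSA is a description here and was not tested.

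RKO is an established line from a colorectal carcinoma. Cells received a control siRNA (siCONT) or 1 of 2 different siRNAs against UHRF1 (siUHRF1-1 on replicate 1 and siUHRF1-2 on replicate 2) for 72 h, followed by 24 h of ethanol (mock) or 300 nM trichostatin A (TSA). This gave 2 arrays for each of siCONT, siUHRF1, siCONT + TSA and siUHRF1 + TSA. One further array measured cells without siRNA after 72 h in 1 µM of the methyltransferase inhibitor 5-aza-2'-deoxycytidine, here 5-aza-dC, and no untreated array without siRNA stands beside it. The labels do not say whether the siCONT replicates were separate cultures, so p-values measure the spread between arrays, which may be partly technical. In the siUHRF1 groups this spread also holds any difference between the 2 siRNAs. Across probes, paired arrays lay a median of 0.0601 log2 units apart in siCONT and 0.0653 in siCONT + TSA. For siUHRF1 and siUHRF1 + TSA these medians were 0.248 and 0.175.

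TSA inhibits histone deacetylases, and the acetylated histones that accumulate are a mark of active chromatin. UHRF1 recruits DNMT1 to newly replicated DNA and so keeps DNA methylation in place, whereas 5-aza-dC traps DNA methyltransferases and lowers methylation as cells divide. The brightest member was an MHC class II gene. MHC class II molecules carry peptides from the endosome to the surface of antigen-presenting cells, their genes are normally silent in epithelial cells, and the transactivator CIITA is their best known regulator, acting with RFX and NF-Y factors on a promoter module that contains a CCAAT box.

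All values below are array signals given as a percentage of the same array's 75th percentile, and differences are on the log2 scale. On that scale the lowest signal flagged as above background was between 4.34% and 5.93% on the 8 siRNA arrays. Signals of different probes cannot be ranked as amounts of RNA. UHRF1 itself was 644% and 645% in siCONT and 128% and 105% in siUHRF1, and 731% and 728% in siCONT + TSA and 79.1% and 65.0% in siUHRF1 + TSA. It therefore fell by 2.47 without TSA (adjusted p = 0.00238, limma) and by 3.35 with it (adjusted p = 0.000132, limma). All 8 siRNA arrays shared 1 slide and 1 scan, with mock arrays in row 1, TSA arrays in row 2, siCONT in columns 1 and 2, and siUHRF1 in columns 3 and 4. Slide row and TSA, and slide column and siRNA, cannot be told apart. Of 12 colon epithelial markers, KRT8, KRT18, CDX1, CDX2 and MUC2 were above background on both siCONT arrays, while CDH1, KRT19, KRT20, VIL1, CDH17 and LGALS4 were on neither. Of the leukocyte markers described here, CD68 was above background on all siCONT and TSA arrays. PTPRC was above it on 1 siCONT and 3 TSA arrays, and CD3D and CD14 on no siCONT and 2 TSA arrays each, at no more than 11.5%. Their part in the class II signal described below was not tested.

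Promoter sequence was available for 22 of the 37 member genes (250 bases before to 50 after the RefSeq start, build GRCh38.p14). The promoters of HLA-DPB1 and HLA-DMA are shown because class II genes stood at the top of the members. Capitals mark CCAAT or its reverse complement ATTGG, which begins 99 and 75 bases before the start in HLA-DPB1, and 79 and 49 bases before it in HLA-DMA.

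HLA-DPB1 promoter, chr6:33075740-33076039, + strand: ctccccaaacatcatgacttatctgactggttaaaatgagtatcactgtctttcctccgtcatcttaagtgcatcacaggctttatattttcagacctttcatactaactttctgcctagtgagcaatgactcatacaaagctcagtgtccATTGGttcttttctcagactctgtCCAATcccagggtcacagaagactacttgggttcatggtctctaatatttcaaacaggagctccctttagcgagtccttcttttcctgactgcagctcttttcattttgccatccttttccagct
HLA-DMA promoter, chr6:32953048-32953347, - strand: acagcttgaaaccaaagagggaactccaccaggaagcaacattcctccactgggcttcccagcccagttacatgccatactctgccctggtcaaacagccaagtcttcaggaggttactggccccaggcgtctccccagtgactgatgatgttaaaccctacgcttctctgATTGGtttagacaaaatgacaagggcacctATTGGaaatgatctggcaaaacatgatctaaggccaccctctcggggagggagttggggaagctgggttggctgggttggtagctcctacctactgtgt

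MEI1 and RFPL4A are shown because both were among the members brightest on the 5-aza-dC array, yet their promoters differ in CpG content. Capitals mark each CG dinucleotide, 17 in MEI1 and 2 in RFPL4A.

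MEI1 promoter, chr22:41699253-41699552, + strand: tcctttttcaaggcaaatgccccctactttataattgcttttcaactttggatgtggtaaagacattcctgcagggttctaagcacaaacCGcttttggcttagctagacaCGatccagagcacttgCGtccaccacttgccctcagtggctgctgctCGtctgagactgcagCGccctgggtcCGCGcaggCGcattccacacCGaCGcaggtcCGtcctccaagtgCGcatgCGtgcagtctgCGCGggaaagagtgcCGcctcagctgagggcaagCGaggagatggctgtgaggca
RFPL4A promoter, chr19:55758847-55759146, + strand: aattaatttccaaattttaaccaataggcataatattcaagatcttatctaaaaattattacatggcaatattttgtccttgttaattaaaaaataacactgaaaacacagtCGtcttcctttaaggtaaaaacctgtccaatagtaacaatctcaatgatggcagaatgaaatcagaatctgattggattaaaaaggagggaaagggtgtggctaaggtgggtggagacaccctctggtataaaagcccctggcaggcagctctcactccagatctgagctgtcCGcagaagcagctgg

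Over the 22 promoters, the median ratio of observed to expected CpG was 0.587, and 10 of them (45.5%) were above 0.6. Over the 35116 promoters of the table the median was 0.579, and 48.9% were above 0.6. Genes with no probe above background on a mock array had a median of 0.383, and genes with a probe above background on all 8 siRNA arrays had 0.840. TATAAA on either strand was found in 6 of the 22 (27.3%, against 11.5% of all promoters of this length) and CCAAT in 10 (45.5%, against 34.6%). GGGCGG was in 10 (45.5%, against 45.0%), CACGTG in 2 (9.09%, against 7.26%) and TGACGTCA in none (against 1.85%). Among genes with no probe above background on a mock array, TATAAA was in 15.7%, CCAAT in 35.1% and GGGCGG in 38.0%. In the same genes CACGTG was in 6.04% and TGACGTCA in 1.56%. With 22 promoters these shares are a description only. The RefSeq window of HLA-DPA1 belongs to a transcript that begins inside the span downstream of the HLA-DPB1 start, and its sequence is not shown.

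The MHC class II genes HLA-DPA1, HLA-DPB1 and HLA-DMA supplied 4 of the 39 member probes. HLA-DPA1 and HLA-DPB1 encode both chains of the DP molecule, and HLA-DMA encodes a chain of the DM molecule, which helps to load peptides. The HLA-DPA1 probe (hg19 chr6:33032848-33032907) read 1.30% and 1.39% in siCONT, 3.63% and 1.24% in siUHRF1, 26.3% and 22.5% in siCONT + TSA, and 84.2% and 64.7% in siUHRF1 + TSA. It was the brightest member on the mean of the TSA arrays, and all 4 TSA values lay far above all 4 mock values. Set against the lowest signal that counts as above background, this was at least 4.87-fold with the control siRNA and at least 16.4-fold with UHRF1 depletion.

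The brighter HLA-DPB1 probe (chr6:33054359-33054418) read 1.34% and 1.46% in siCONT and 1.21% and 1.32% in siUHRF1, and it rose to 17.7% and 20.9% in siCONT + TSA and 48.1% and 38.5% in siUHRF1 + TSA. Its limits were 3.85-fold and 9.57-fold. A second HLA-DPB1 member probe followed the same order at lower levels, 8.70% and 13.3% in siCONT + TSA and 24.1% and 18.4% in siUHRF1 + TSA. The HLA-DMA probe (chr6:32917418-32917477) was 2.03% to 4.72% on the mock arrays, 9.91% and 7.68% in siCONT + TSA, and 36.2% and 22.6% in siUHRF1 + TSA. In all 4 probes both siUHRF1 + TSA arrays were above both siCONT + TSA arrays. This order held for 26.9% of all probes tested. The 4 probes lie in the HLA class II region and some measure the same gene, so they are not independent cases.

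The other class II genes did not move as 1 block. A list of 44 probes for 27 class II and related genes, put together after the members were known, held 23 probes below background on all mock arrays, and the 4 member probes were among these. HLA-DMB, whose product pairs with that of HLA-DMA, was above background throughout and so is no member. It read 17.0% and 17.2% in siCONT, 136% and 136% in siCONT + TSA, 15.8% and 14.4% in siUHRF1, and 189% and 95.9% in siUHRF1 + TSA. By contrast HLA-DRA stayed between 0.974% and 1.31% on the 8 siRNA arrays, and both HLA-DQA1 probes between 1.06% and 1.47%. HLA-DRB1 (29.2% to 37.7%), HLA-DRB3 (25.3% to 34.2%) and 1 HLA-DQB1 probe (5.47% to 13.1%) were above background on all 8. Another HLA-DQB1 probe read 0.978% to 1.08% on the mock arrays and 1.15% and 2.00% in siCONT + TSA. In siUHRF1 + TSA it read 7.67% and 4.67%, above background on replicate 1 only. Neither CIITA probe was above background on any array. CD74, the invariant chain, was above background on 1 of the 8 arrays, siUHRF1 + TSA replicate 1. In a bulk culture, a rise in more cells and a rise in RNA per cell cannot be told apart.

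**Figure D1:**
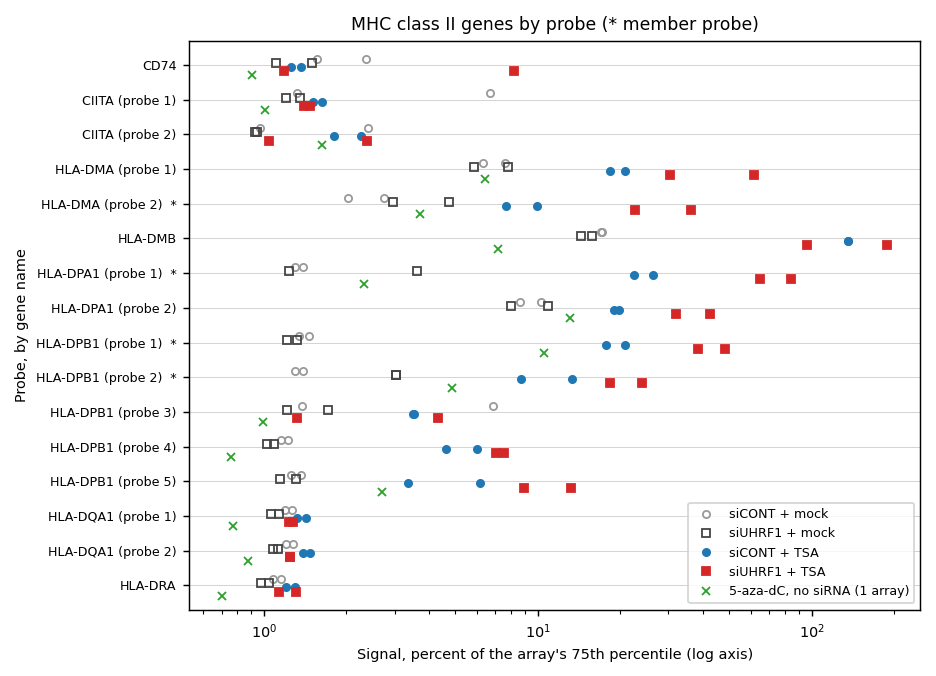
Signals of 16 probes for 8 MHC class II genes and regulators on the 9 arrays, as a percentage of each array's 75th percentile on a log axis. The DP and DM probes, members (asterisk) or not, lie higher on the TSA arrays (filled) than on the mock arrays (open) apart from 1 dim HLA-DPB1 probe, while HLA-DRA, HLA-DQA1 and CIITA stay near the floor apart from 1 siCONT value of a CIITA probe.

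MEI1, RFPL4A, KPNA7 and FBXO15 are described together by their known roles alone, and none of the 161 probes below background on the mock arrays in a wider list of germ cell and spermatogenesis genes was a member. MEI1, needed for the DNA breaks of meiosis, read 3.07% to 5.06% on the mock arrays, 12.3% and 9.97% in siCONT + TSA, and 29.7% and 30.7% in siUHRF1 + TSA. RFPL4A, a RING finger gene of oocytes, read 18.1% and 18.9% in siCONT + TSA but 50.8% and 21.2% in siUHRF1 + TSA, so the array with siUHRF1-1 stood apart from the other TSA arrays. KPNA7, an importin alpha of oocytes and early embryos, had 2 member probes. The brighter one read 0.992% to 1.31% on the mock arrays, 16.5% and 18.7% in siCONT + TSA, and 23.3% and 11.4% in siUHRF1 + TSA, with overlapping TSA groups. FBXO15, an F-box gene expressed in embryonic stem cells, was 4.20% to 5.74% on the mock arrays and 11.98% to 21.3% on the TSA arrays. Its mock values lay near the lowest signals flagged as above background, unlike those of KPNA7.

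Other members encode secreted or immune proteins. DEFB103B, which encodes an antimicrobial beta-defensin, read 22.1% and 19.7% in siCONT + TSA and 56.4% and 27.4% in siUHRF1 + TSA, and with HLA-DPA1 it was the only member whose limit passed 4-fold with both siRNAs. Its copy DEFB103A is nearly identical, so the signal may come from either. DAPL1, a gene of differentiating epithelium, read 14.3% and 14.1% in siCONT + TSA and 22.3% and 11.99% in siUHRF1 + TSA, from 1.07% to 1.28% on the mock arrays. A second DAPL1 probe, described below, was not above background on any TSA array. GBP2, an interferon-inducible GTPase, read 7.97% to 11.8% across the TSA arrays. MIA, a secreted protein first found in melanoma, and MYO1F, a myosin found mainly in leukocytes, read 6.87% to 13.4% and 9.79% to 11.9%. Apart from DEFB103B and DAPL1, these genes crossed the threshold by a small margin.

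Membrane, trafficking and signalling genes were mostly dim. C20orf103, now named LAMP5 and related to lysosomal membrane proteins, read 10.9% and 9.94% in siCONT + TSA and 24.7% and 37.8% in siUHRF1 + TSA, from 1.29% to 4.49% on the mock arrays. Its siUHRF1 + TSA arrays did not overlap with siCONT + TSA, and the higher one carried siUHRF1-2. SYTL2, a Rab27 effector, read 20.4% with siUHRF1-1 and 7.53% to 9.95% on the other TSA arrays. ATP2B4, a calcium pump of the plasma membrane, went the other way, with 12.5% and 11.5% in siCONT + TSA and 8.79% and 7.39% in siUHRF1 + TSA. DUSP19, a dual-specificity phosphatase, read 8.69% to 12.9% on the TSA arrays, and RUNDC3A, a neuronal RUN domain gene, 6.42% to 14.1%. EPN3 (an epsin), AGAP2 (a GTPase-activating protein), MANSC4 and the olfactory receptor OR10C1 reached at most 15.8%, 12.3%, 23.6% and 10.68%.

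Genes for chromatin and transcription were few. HES2, a basic helix-loop-helix factor, read 15.4% and 9.90% in siCONT + TSA and 12.3% and 14.3% in siUHRF1 + TSA. KDM4C, a histone demethylase, and YEATS2, a subunit of a histone acetyltransferase complex, read 7.93% to 10.6% and 7.71% to 8.84% on the TSA arrays. ZNF816-ZNF321P, a zinc finger read-through locus, was the dimmest member, with 3.82% in both siCONT arrays and 6.14% to 7.62% on the TSA arrays.

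The remaining members are loci with little known function. THC2767512, a transcript cluster at chr19:42006930-42006989 with no gene assigned, read 1.26% and 1.90% in siCONT, 2.58% and 1.70% in siUHRF1, 14.6% and 13.7% in siCONT + TSA, and 100.1% and 113% in siUHRF1 + TSA. It was the only member to pass its array's 75th percentile under TSA. The nearest named probe on the array, C19orf69, lay 56358 bases away. LOC100505701 read 17.4% and 18.4% in siCONT + TSA and 14.8% and 13.8% in siUHRF1 + TSA, from 2.42% to 4.81% on the mock arrays, and its nearest named neighbour was PSG8, at 7980 bases. LOC100131860, LOC147646 (now C19orf84), C6orf99 (now LINC02901), C10orf55, LOC730961, LOC646903, LOC100132529, LOC645967, CU691765 and ENST00000423408 had TSA values from 5.71% to 12.7%. Of the 37 names, 30 matched a RefSeq gene, 26 of them protein coding and 4 long noncoding, and 7 did not match.

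**Figure D2:**
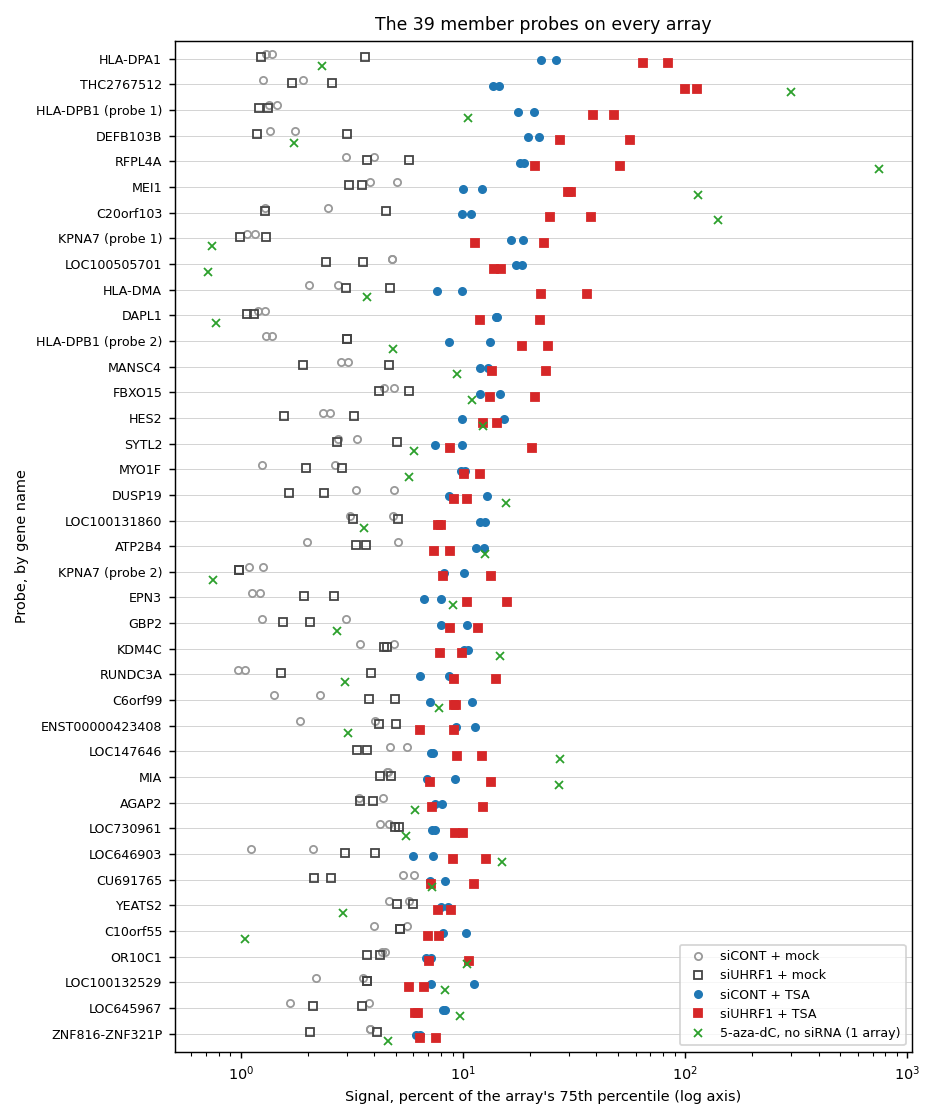
Signals of the 39 member probes on the 9 arrays, as a percentage of each array's 75th percentile on a log axis, ordered by mean TSA level. Mock values (open) reach at most 6.003% and TSA values (filled) start at 5.71%, and the gap between them narrows from top to bottom.

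The flags drew a line through a range of dim signals. On the TSA arrays 25 of the 39 members never reached 20% of the 75th percentile. The limit of the rise had a median of 2.00-fold with the control siRNA (1.26-fold to 4.87-fold) and 2.39-fold with UHRF1 depletion (1.38-fold to 23.7-fold), and it passed 2-fold with both siRNAs for 16 members. By the software's more lenient flag for a positive and significant signal, 37 of the 39 had a signal on at least 1 mock array and 25 on all 4, so only DAPL1 and the brighter HLA-DPB1 probe lacked one. Just inside the rule lay ZNF816-ZNF321P, LOC645967 (6.11% to 8.33% under TSA) and LOC100132529 (5.71% to 11.3%). Just outside, missing the rule on 1 mock array only, lay RGS4, IGFL2 and LRRC15, with 30.7% to 227%, 21.3% to 280.1% and 22.98% to 74.7% under TSA. In addition, 73 probes were above background on exactly 3 of the 4 TSA arrays, and 58 on exactly 1 mock array and all TSA arrays.

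Other probes for the same genes did not always share the pattern. The array holds 16 further probes for 10 of the member genes, and 8 of them, for 7 genes, were above background on all 4 mock arrays. RFPL4A had a second probe at 5.96% to 12.9% on the mock arrays, 43.6% and 38.4% in siCONT + TSA, and 102.8% and 37.7% in siUHRF1 + TSA. Second probes for HLA-DPA1 and HLA-DMA were likewise above background before TSA and higher with it, with 8.62% to 10.3% in siCONT against 19.0% and 19.7% in siCONT + TSA for HLA-DPA1, and 6.32% and 7.56% against 20.8% and 18.3% for HLA-DMA. For YEATS2, ATP2B4 and KDM4C the brightest probes read 1014% to 1176%, 81.3% to 104% and 144% to 196% on the mock arrays. For these genes a bright signal was present before TSA at another probe, and the threshold was crossed at the member probe. The second probe for DAPL1 went against its member probe. It read 1.48% to 3.94% on the TSA arrays, never above background, and was above background on siCONT replicate 2, at 10.4%.

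Whether UHRF1 depletion altered the members' level under TSA was tested in siUHRF1 + TSA against siCONT + TSA. Both groups had to carry the flags, but the same arrays chose the members, so the choice was not independent of this comparison. The rule left out 308 probes above background on both siUHRF1 + TSA arrays and no other siRNA array. For both siCONT + TSA arrays alone there were 11 such probes. The members' counts and median are therefore a description of the chosen probes. For each probe limma used 1 spread for all 4 siRNA groups, although the siUHRF1 pairs lay further apart than the siCONT pairs. Its standard errors may therefore understate the spread between the siUHRF1 + TSA arrays. By limma, 4 of the 39 members (10.3%) were higher at an adjusted p below 0.05, against 2.96% of the 23727 probes tested. None was lower (against 0.573%). At an unadjusted p below 0.05, 10 members were higher (against 10.3% of all probes) and 0 lower (against 7.14%). THC2767512 rose by 2.91 (standard error 0.26, adjusted p = 0.00297, limma), MEI1 by 1.45 (0.18, adjusted p = 0.00975), HLA-DPB1 by 1.16 (0.15, adjusted p = 0.0120) and HLA-DMA by 1.71 (0.33, adjusted p = 0.0484). For all 4, both siUHRF1 + TSA arrays were above both siCONT + TSA arrays (against 26.9% of all probes). The HLA-DPB1 and HLA-DMA calls each rested on 1 probe. The second HLA-DPB1 member probe had an adjusted p of 0.0858 (limma). Further HLA-DPB1 probes that were tested had 0.104 and 0.161. Another HLA-DMA probe, brighter under TSA, differed by 1.15 (adjusted p = 0.150, limma).

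The other members did not pass the test. HLA-DPA1 differed by 1.60 (standard error 0.47, adjusted p = 0.150, limma) and C20orf103 by 1.55 (0.61, adjusted p = 0.262), with non-overlapping groups in both. DEFB103B and RFPL4A differed by 0.91 and 0.83, and their 2 siUHRF1 + TSA arrays were 1.04 and 1.26 apart. The lowest differences were -0.65 for LOC100131860, -0.57 for ATP2B4, -0.54 for LOC100132529, -0.43 for ENST00000423408 and -0.41 for LOC645967. KPNA7, DUSP19 and YEATS2 were near 0, at -0.11, -0.12 and 0.0017. Over the 39 members the median was 0.28, against -0.0076 over all probes tested, and 29 members were above 0 (74.4%, against 48.8% of all probes). The groups did not overlap for 16 members that were higher (41.0%, against 26.9% of all probes) and 8 that were lower (20.5%, against 26.8%), and they overlapped for 15.

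The 4 calls did not rest equally firmly on the arrays. The call of THC2767512 was kept with each of the 8 arrays left out and lost by the methods' t-test after Benjamini-Hochberg adjustment, which called no probe. Without siCONT + TSA replicate 2, siUHRF1 + TSA replicate 1 or siUHRF1 + TSA replicate 2, MEI1 had an adjusted p of 0.0615, 0.0581 and 0.0549 from limma. Without siCONT + TSA replicate 1 or siUHRF1 + TSA replicate 1, HLA-DPB1 had an adjusted p of 0.0834 and 0.0522. HLA-DMA lost its call with any array left out, with an adjusted p from 0.0520 (without siUHRF1 replicate 2) to 0.242 (without siCONT + TSA replicate 2). HLA-DPA1 gained one without siUHRF1 replicate 1 or 2 (adjusted p = 0.0146 and 0.0140). Over all alternatives with adjustment the adjusted p ranged from 0.00253 to 0.150 for THC2767512, from 0.00821 to 0.582 for MEI1, from 0.0120 to 0.497 for HLA-DPB1, from 0.0419 to 0.552 for HLA-DMA and from 0.0140 to 0.490 for HLA-DPA1. The number of members called was 2 without either siCONT + TSA array, 1 without siUHRF1 + TSA replicate 1 and 2 without siUHRF1 + TSA replicate 2. With normexp background correction, which adds an offset of 50 units, 1 was called and the members' median was -0.39. The siUHRF1 + TSA arrays differed more than 2-fold for 4 members and the siCONT + TSA arrays for 0, and siUHRF1-1 gave the higher value of the pair for 19 of the 39.

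**Figure D3:**
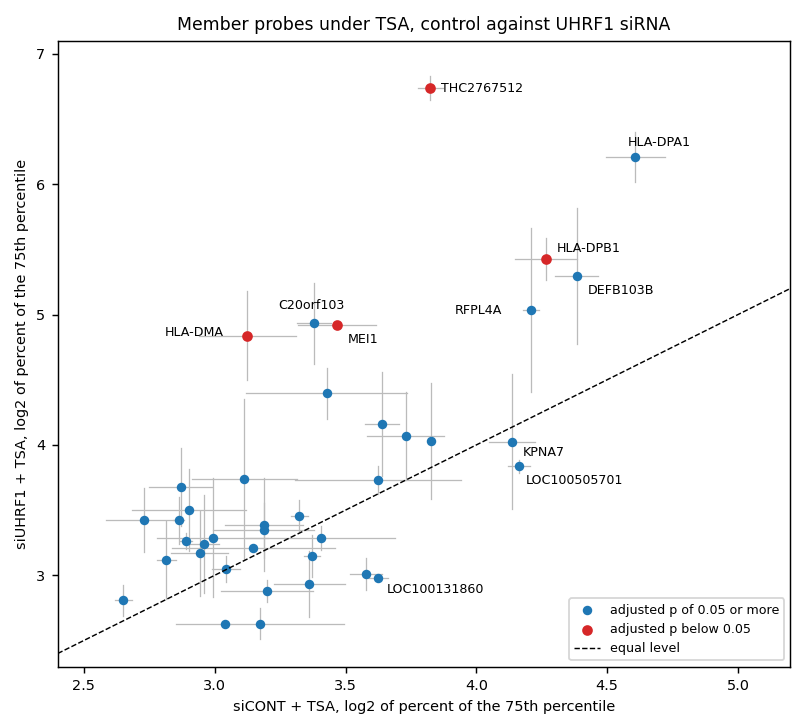
Mean log2 level of each member probe in siCONT + TSA (horizontal) and siUHRF1 + TSA (vertical), with grey lines joining the 2 arrays of a group and a dashed line of equal level. The 4 probes with an adjusted p below 0.05 (red) all lie above the line, as do 29 of 39 (against 48.8% of all probes tested).

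The 5-aza-dC array was a single array on another slide and in another scan, with a 75th percentile of 822 units against 245 to 338 units on the siRNA arrays, so its values are given without a test. The lowest signal flagged as above background on it was 3.40%, against 4.34% to 5.93% on the siRNA arrays. Of the 39 members, 26 (66.7%) were above background on it, against 12.3% of all probes below background on the 4 mock arrays. The share was 76.9% for 308 probes above background on both siUHRF1 + TSA arrays and on no other siRNA array, and 18.2% for 11 probes above it on both siCONT + TSA arrays alone. Among probes that just missed the rule, it was 57.5% for 73 below background on all mock arrays and above it on exactly 3 TSA arrays. For 58 probes above background on exactly 1 mock array and all 4 TSA arrays it was 75.9%, so the members' share lay between these. Slide, scan, the lack of transfection and the drug cannot be told apart.

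The members split widely on that array. RFPL4A read 746% (and 1098% on its second probe), THC2767512 302%, C20orf103 140% and MEI1 115%, all above their level on every TSA array. LOC147646 and MIA followed at 27.5% and 27.1%. Most of the others above background were dim there too, with a median of 10.5% over the 26. The limit of the rise over siCONT had a median of 2.10-fold in these 26 and a lowest value of 0.923-fold. The flag alone therefore does not show a rise. HLA-DPB1 read 10.6% and 4.87% on its 2 member probes, below all of their TSA values. The 13 member probes not above background held HLA-DPA1 at 2.33%, HLA-DMA at 3.72%, DEFB103B at 1.74%, DAPL1 at 0.772%, LOC100505701 at 0.716% and both KPNA7 probes at 0.744% and 0.751%. The others were LOC100131860, GBP2, ENST00000423408, RUNDC3A, YEATS2 and C10orf55. For 3 of these genes another probe, bright enough to be above background on all mock arrays, was above it here too, with 13.1% for HLA-DPA1, 6.40% for HLA-DMA and 1063% for YEATS2. HLA-DMB, at 7.17%, was also below its level on all siRNA arrays. Bright TSA levels were thus found on both sides of the split.

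The UHRF1 difference under TSA had a median of 0.32 in the 26 members with a signal above background after 5-aza-dC (-0.57 to 2.91) and of 0.16 in the 13 others (-0.65 to 1.71). Of the 4 members called in that comparison, 3 gave a signal above background after 5-aza-dC, and the HLA-DMA member probe did not.

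**Figure D4:**
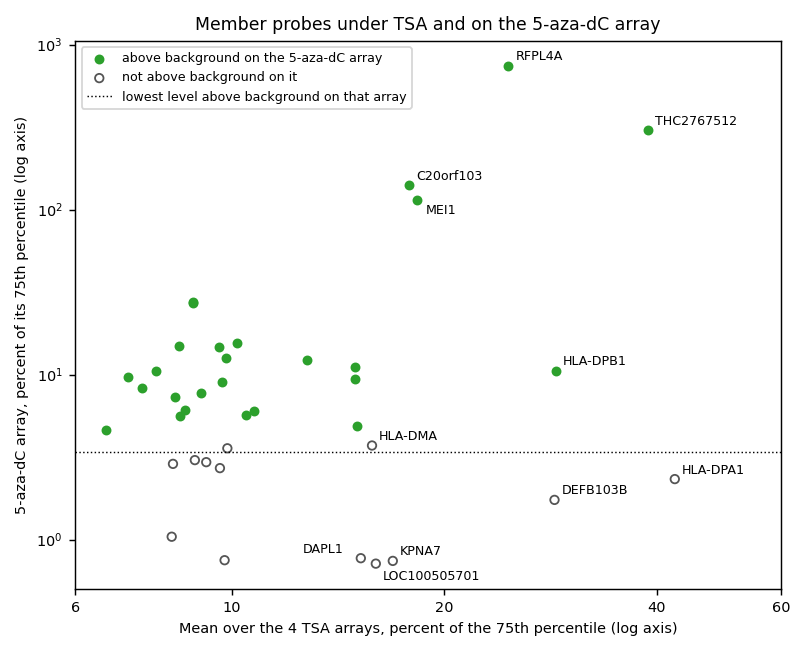
Level of each member probe on the 5-aza-dC array (vertical) against its mean over the 4 TSA arrays (horizontal), both as a percentage of the array's 75th percentile on log axes. RFPL4A, THC2767512, C20orf103 and MEI1 lie above 100%, while HLA-DPA1, DEFB103B, DAPL1, KPNA7 and LOC100505701 lie below the lowest level called above background (dotted).

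No member was on a list of 37 genes known to respond to histone deacetylase inhibitors, but only 11 of its 51 probes were below background on the mock arrays and could have been. In siCONT + TSA against siCONT, 6 of the 32 list genes tested were higher and 3 lower at an adjusted p below 0.05 (limma), against 6.46% and 3.95% of all probes. DHRS2, a reductase, rose by 2.71 (adjusted p = 0.00117, limma), and GSN (gelsolin) and TUBB3 (a neuronal tubulin) rose by 1.59 and 1.43. LGALS1, CLU and CRIP2 were the other list genes called higher, with differences of 1.72, 1.16 and 0.52. GDF15, a stress cytokine, fell by 1.84. GADD45A and H1F0 were the other list genes called lower, with differences of -1.39 and -0.77. In siUHRF1 + TSA against siUHRF1, 10 were higher and 5 lower (against 9.95% and 5.53%). CDKN1A, which encodes the cell cycle inhibitor p21, did not pass, with a difference of -0.44 in siCONT + TSA (adjusted p = 0.0690, limma).

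By chromosome, 7 member probes lay on chromosome 6, of which 4 were in the HLA class II region, 7 on chromosome 19 and 5 on chromosome 1. Of the 30 gene lists chosen for this tissue and treatment, the leukocyte list held most members with assigned function (HLA-DPA1, HLA-DPB1, HLA-DMA and GBP2). These were 5 of its 294 probes that were below background on the mock arrays (1.70%, against 0.152% of all such probes). Of these 5, 4 were the class II probes already described, so the share largely restates that region. The lists of ion channels, neurotransmitter receptors, extracellular matrix, solute carriers, germ cell and spermatogenesis genes and cytokines held none, nor did the genes that the study names as silenced by methylation, 21 of whose 31 probes were below background on the mock arrays. Each of these lists had 21 to 216 such probes, too few for 0 members to set it apart from 0.152%. A further 18 member probes were on no list.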

How the data were processed

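Total RNA of RKO cells was measured on 9 one-colour Agilent arrays. The deposited files hold spot intensity as processed by the authors with Agilent Feature Extraction 10.7.3.1 (background subtracted, detrended, not normalized between arrays), with gene names and hg19 coordinates, while the deposited value table gives these intensities rounded. Log2 intensity was shifted by each array's 75th percentile, outlier spots were left out and spots of a probe averaged. A probe counted as above background where more than 50% of its spots carried the flag gIsWellAboveBG. limma 3.58.1 in R 4.3.3 modelled the 4 siRNA groups (8 arrays) over 23727 probes that both arrays of some group showed above background, with Benjamini-Hochberg adjustment. A limit ("at least") took, for each array of the dim group, the higher of the probe's own level and the lowest level flagged as above background on that array. Arrays are few, and their number limits precision. Members, lists and tests were chosen with earlier results of these data known. Named were UHRF1, the 15 brightest members, up to 4 per list, the 5 highest and lowest UHRF1 differences, the 5 brightest with and without signal on 5-aza-dC, and 3 probes on either side of the rule; other members are named to account for all. Alternatives were other background corrections, scalings, filters, flags, priors and call rules, the value table, a replicate block and each array left out. The procedure was tested on simulated data with independent noise and the same spread in every group. These did not copy the unequal spread between groups or the correlated deviations of the real arrays. Numbers pair the siUHRF1 arrays with and without TSA, which share an siRNA (correlation of deviations 0.56), but not siCONT + TSA with siUHRF1 + TSA (-0.011).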

Additional observations from a re-analysis of the deposited data

How the results depend on the processing

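UHRF1 kept its fall under the alternatives run, and its call under all but the methods' t-test after Benjamini-Hochberg, where its differences of -2.47 and -3.35 had an adjusted p of 0.468 and 0.159. The share of members above background on 5-aza-dC was 66.7%, and 63.3% to 72.7% with an array left out. The number of members was 45 to 66 with an array left out of the rule (66 without siUHRF1 replicate 2), since fewer flags were then asked for. With the lenient flag gIsPosAndSignif it was 40, of which 2 were shared with the 39, and 52.5% of those 40 had that flag on 5-aza-dC, against 25.7% of all probes without it on the mock arrays. The cause of the changes below was not tested unless stated.

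Members called higher in siUHRF1 + TSA numbered 4, and 1 with normexp, 10 at an unadjusted p, 7 by the methods' t-test at an unadjusted p (with 3 called lower) and 0 by that t-test after Benjamini-Hochberg, which called 0 of all probes. With an array left out they were 1 to 4, and 0 called lower. All probes called numbered 839, and 92 with normexp, 313 among probes above background on all 4 TSA arrays, 4127 at an unadjusted p, 3634 by the t-test at an unadjusted p, and 453 to 1115 with an array left out (453 without siCONT + TSA replicate 1, 476 without replicate 2). The members' median was 0.21 to 0.38 with an array left out and -0.39 with normexp.

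Differences that turned sign belonged to uncalled members. With normexp they were -0.32 (DAPL1), -0.17 (MANSC4), -0.26 (FBXO15), -0.39 (HES2), -0.26 (SYTL2), -0.46 (GBP2), -0.23 (RUNDC3A), -0.45 (C6orf99), -0.31 (LOC147646), -0.39 (OR10C1) and -0.50 (ZNF816-ZNF321P). With quantile normalization they were -0.023 (HES2), -0.0055 (GBP2), -0.10 (C6orf99) and -0.027 (ZNF816-ZNF321P). With an array left out they ranged from -0.63 to 0.41 (KPNA7), -0.24 to 0.65 (DAPL1), -0.0029 to 0.68 (FBXO15), -0.21 to 0.42 (HES2), -0.40 to 0.17 (DUSP19), -0.054 to 0.37 (GBP2) and -0.25 to 0.37 (C6orf99), and each of these turned sign only without an array of the TSA groups.

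With the replicate block, which pairs no arrays of the tested comparison, the same number of members (4) and 746 of all probes were called, and HLA-DMA had an adjusted p of 0.0490 (range over its alternatives 0.0419 to 0.552). The UHRF1 difference without TSA could not be computed from the 4 TSA arrays alone. Scaling on the spike-in probes moved the median of all probes in siCONT + TSA against siCONT from 0.069 to -0.13. Dim signal limits most members, since 25 never reached 20% of the 75th percentile.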
